A study of Mus musculus with 6 samples.

Results

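Genes lower in the heart after 28 days of angiotensin II than in every control and every 7 day library numbered 44, of 22556 genes in the table and 9339 with a mean control level of at least 2. Angiotensin II is a peptide hormone that constricts vessels and raises blood pressure. Whole hearts were taken from wild-type mice that had received it subcutaneously for 7 or 28 days. An implanted pump gave it at a dose of 1000 ng/kg/min. The control group is labelled 0 days, although its samples also list this rate. There were 2 RNA sequencing libraries in every group, named here replicates 1 and 2. The labels give no strain, age or sex. They do not state whether the controls were infused or whether each library came from its own mouse. The p-values therefore measure only the spread between these libraries, which may be technical.

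The members were chosen by the values themselves, in RPKM (read counts scaled to transcript length and to the library's mapped reads). The higher of the 28 day values had to be at most the lowest of the 4 control and 7 day values divided by 1.4, and the mean control level had to be at least 2 RPKM. Genes whose symbols start with Gbp, Ifi, Iigp, Irg, Isg, Oas, Irf, Stat, H2-, Psmb, Tap, Mir or Snor were left out, which removed 17 of the 61 genes that met the values. Lower levels at 28 days are therefore a property of the rule and not a finding, and limma calls on them are given only as a description. The rule also bounds the 7 day levels and the spread within groups, since it uses the lowest and highest values. It did not use the order of the libraries within a group or the sequences of the promoters.

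Interferons are secreted proteins that cells release on sensing foreign or misplaced nucleic acid. Type I interferon binds the receptor made of Ifnar1 and Ifnar2, the receptor's kinases activate STAT proteins such as Stat2, and these join Irf9 to bind the interferon-stimulated response element in promoters. The genes switched on in this way encode nucleic acid sensors, proteins that block viral growth, and regulators that damp the signal. In a heart without infection they are transcribed at a basal level in several cell types.

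Leaving genes out by the start of their symbols did not remove the interferon response. Of the 44 members, 17 were on a list of 60 interferon response genes whose symbols do not start in those ways, and 1 more, I830012O16Rik, is now named Ifit3b in RefSeq. These 18 are described as interferon-induced members and the other 26 as other members. The split rests on that list and on symbols alone, so some of the 26 may be interferon-induced too. The 17 genes left out by symbol comprised 13 with prefixes of interferon-induced or interferon signalling genes, namely Gbp2, Gbp3, Ifi27l2a, Ifi44, Ifih1, Ifit1, Ifit2, Ifit3, Isg15, Oas1a, Oasl2, Irf9 and Stat2, with H2-T24 and 3 small nucleolar RNAs. The small nucleolar RNAs met the rule as ties at 0: Snora16a and Snora70 were above 0 in control replicate 2 alone, and Snord22 was at 0 in control replicate 2 and both 28 day libraries.

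The promoters of several members hold the letters of the interferon-stimulated response element, and these are shown because they are independent of the values that chose the genes. RefSeq promoter windows (GRCm38.p6, 250 bases before to 50 after the start) were matched for 30 of 44 members, 11 interferon-induced and 19 others. The letters GAAANNGAAA were searched on both strands and occurred in the windows of 8 of the 30 members, against 3.99% of 27025 genes. They were 6 of the 11 interferon-induced members (Bst2, Ddx60, Eif2ak2, I830012O16Rik, Rsad2 and Trim34a) and 2 of the 19 others (Apol10b and Mitd1). The 11 were set apart as interferon response genes by list or symbol, so nothing is read from their share. The stretches upstream of the start are written 5′ to 3′ along each gene's strand, with the matches in capitals:
Bst2, chr8:71537567-71537622, minus strand: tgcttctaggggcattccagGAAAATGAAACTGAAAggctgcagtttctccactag
Ddx60, chr8:61928014-61928086, plus strand: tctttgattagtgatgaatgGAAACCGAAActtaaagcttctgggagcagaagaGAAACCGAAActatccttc
I830012O16Rik (Ifit3b), chr19:34607749-34607832, plus strand: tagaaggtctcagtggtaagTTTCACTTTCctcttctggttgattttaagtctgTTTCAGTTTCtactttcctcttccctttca
Rsad2, chr12:26456543-26456592, minus strand: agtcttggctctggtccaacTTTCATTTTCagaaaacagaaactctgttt
Mitd1, chr1:37890619-37890661, minus strand: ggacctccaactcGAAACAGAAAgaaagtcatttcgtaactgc

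Bst2, Ddx60 and I830012O16Rik each held 2 matches upstream of the start, overlapping in Bst2. In Ddx60 the nearer match ended 10 bases before the start, the closest of those printed. The matches of Eif2ak2, Trim34a and Apol10b were not wholly upstream of the start and are not printed. The letters TTCNNNGAA, the core to which STAT dimers bind, occurred in the windows of 7 of 30 members, against 9.55% of all genes. They were Bst2 and Eif2ak2 among the interferon-induced members, and Fcgr1, Helb, Hsd3b7, Mitd1 and Ucp3 among the others. A match is a description of letters and not evidence of binding.

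Across the 18 interferon-induced members, the mean control level was between 2.86 and 77.6 RPKM and the ratio of the control mean to the 28 day mean lay between 1.90 and 4.58, with a median of 2.61. For the 25 other members above 0 in every library, that ratio lay between 1.47 and 4.18 with a median of 2.18. In bulk tissue, fewer cells of a type and less RNA per cell cannot be told apart. In limma, fitted over all 11096 genes with a mean of at least 1 RPKM, 24 of the 43 tested members were called lower at 28 days than in the controls (adjusted p under 0.05), against 1.54% of all genes. Against 7 days it was 31 of 43, beside 4.26% of all genes. The rule chose the members on the same values, so a high share was fixed by it and nothing is read from these counts. No call at 28 days against control (0 of 24) held in all 6 fits that each left out 1 library. The count was 0 without control replicate 1, 8 without control replicate 2, 7 without either 7 day library and 10 without 28 day replicate 1. Against 7 days the count was 6 without 7 day replicate 1, 1 without 7 day replicate 2 and 13 without 28 day replicate 1.

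**Figure D1:**
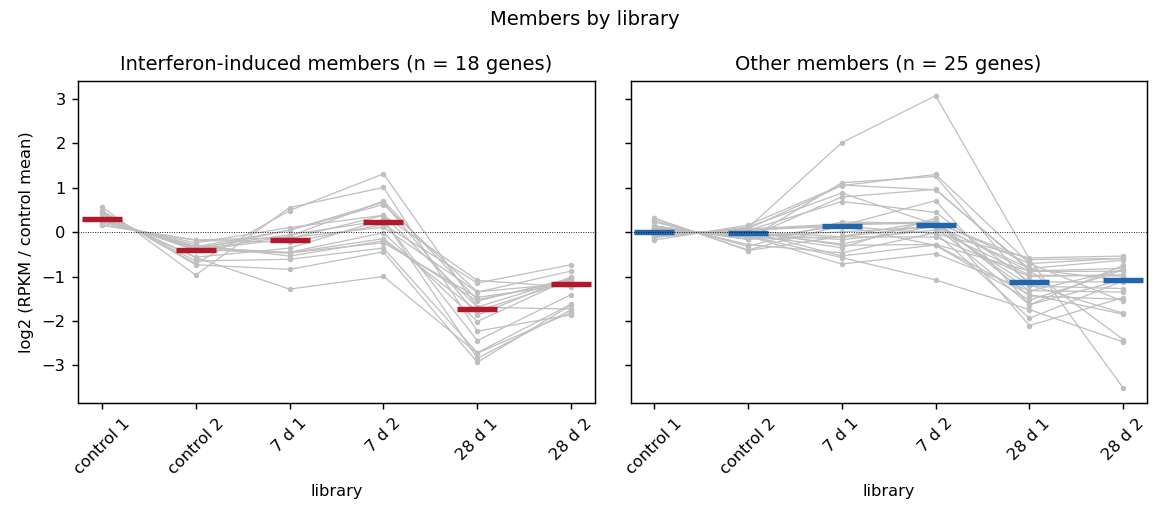
Levels of the members in each library as log2 of RPKM over the control mean (grey lines, 1 per gene), with the median as a coloured bar, for 18 interferon-induced members and 25 other members above 0 in every library. The interferon-induced median is 1.24 times the control mean in control replicate 1 and 0.762 times in control replicate 2, and the medians at 28 days are 0.302 and 0.447 times; the other members have 0.46 and 0.472 times at 28 days.

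Sensors of nucleic acid among the members were Zbp1, Dhx58, Ddx60 and Eif2ak2. Zbp1, which binds nucleic acid in the left-handed Z form, was at 5.88 and 2.596 RPKM in the controls, 5.95 and 10.6 at 7 days and 1.32 and 1.28 at 28 days (replicates 1 and 2 in each group). Both 7 day libraries lay above both controls in 1 of the 18, Zbp1, against 47.7% of the 9339 genes, and 7 day replicate 1 exceeded control replicate 1 by little. Dhx58, a helicase of the RIG-I-like receptor family, was at 4.26 and 1.46 RPKM in the controls, 4.21 and 5.76 at 7 days and 0.61 and 0.788 at 28 days. Its controls differed from each other by more than control replicate 2 differed from either 28 day library.

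Ddx60, another helicase of antiviral defence, was at 5.17 and 2.62 RPKM in the controls, 1.60 and 1.95 at 7 days and 0.588 and 1.11 at 28 days. Both 7 day libraries lay below both controls in 1 of the 18, Ddx60, against 17.0% of the 9339 genes. Limma did not call Ddx60 at 7 days against the controls (log2 change -0.89, SE 0.31, adjusted p 0.097). Eif2ak2, a kinase that halts protein synthesis on binding double-stranded RNA, had means ± SD (n = 2) of 8.16 ± 2.70, 6.41 ± 0.721 and 3.28 ± 0.476 RPKM in the control, 7 day and 28 day groups.

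Antiviral effectors formed the next group. Bst2, or tetherin, which holds budding virus at the cell surface, was the most abundant member, at 93.3 and 61.9 RPKM in the controls, 80.2 and 124 at 7 days and 21.2 and 38.7 at 28 days. Rsad2, or viperin, an enzyme that makes a chain-terminating nucleotide, was at 15.5 and 9.51 RPKM in the controls, 11.7 and 20.4 at 7 days and 4.34 and 5.91 at 28 days. In both genes the control and 7 day libraries overlapped and the 28 day libraries lay below them. Cmpk2, a mitochondrial nucleotide kinase that lies next to Rsad2 on chromosome 12 with 0 RefSeq genes between them, had means of 6.57 ± 2.29, 7.24 ± 1.82 and 2.62 ± 0.824 RPKM (SD, n = 2) in the control, 7 day and 28 day groups.

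I830012O16Rik, the IFIT family gene now called Ifit3b, was at 19.1 and 9.79 RPKM in the controls, 11.3 and 17.7 at 7 days and 2.02 and 4.30 at 28 days. Its control mean was 4.58 times the 28 day mean, the highest such ratio among the 18. Ifit3, its close relative left out by symbol, was at 48.9 and 20.8 RPKM in the controls, 29.2 and 47.2 at 7 days and 5.40 and 11.2 at 28 days, and reads shared between these near-identical genes could not be told apart here. Rtp4, a chaperone of membrane receptors that is induced by interferon, was at 19.6 and 12.8 RPKM in the controls, 15.5 and 19.4 at 7 days and 2.98 and 6.11 at 28 days. I830012O16Rik and Rtp4 followed the same order of libraries within each group.

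Mx2, a dynamin-like GTPase gene that RefSeq lists as a transcribed pseudogene, went with a control mean 4.19 times the 28 day mean. For Xaf1, which opposes an inhibitor of cell death, this ratio was 2.72, and for Trim34a, of the tripartite motif family, it was 2.63. Slfn2, of the Schlafen family, had 2.24 and Samd9l, which restricts viruses and cell growth, had 1.90, the lowest of the 18. Mx2 and Trim34a have close relatives, so their levels are uncertain to the extent that reads map to both copies.

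Regulators were fewer. Usp18, a protease that removes the ubiquitin-like protein Isg15 and damps receptor signalling, was at 20.7 and 8.92 RPKM in the controls, 8.29 and 10.9 at 7 days and 1.94 and 4.76 at 28 days. Control replicate 1 stood apart from the other 3 libraries above the 28 day level. Parp9 and Parp14, ADP-ribosyltransferase family members on chromosome 16 with 3 RefSeq genes between them, had control means 2.13 and 2.42 times the 28 day means. D14Ertd668e, now Phf11d, of the PHD finger family, had 2.37, and its relatives Gm6907 (now Phf11c) and Phf11, which are among the other members, had 2.78 and 2.50. These 3 genes lie close together on chromosome 14, with 1 to 4 RefSeq genes between any pair, and reads shared between such relatives could not be told apart here.

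**Figure D2:**
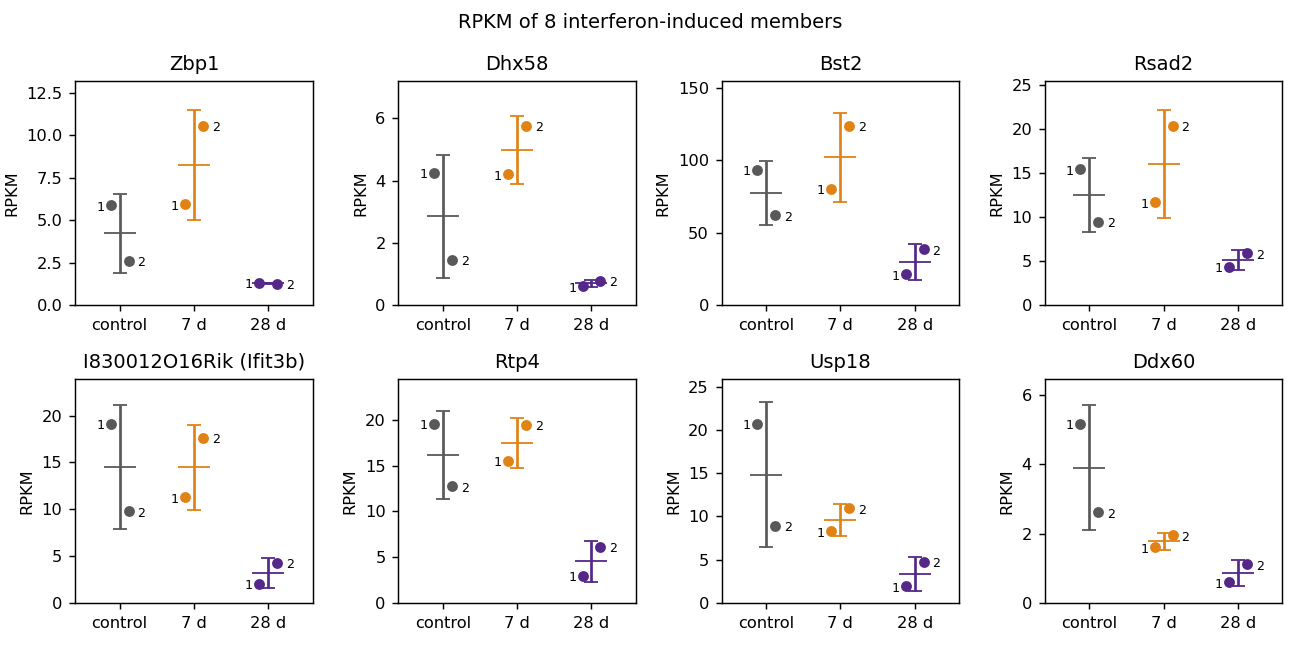
RPKM of 8 interferon-induced members in the control, 7 day and 28 day groups; points are libraries marked 1 and 2, horizontal bars the group mean and error bars the SD (n = 2), each panel starting at 0. Control replicate 1 lies above replicate 2 in all 8 panels and 7 day replicate 2 above replicate 1 in all 8, while every 28 day point lies below the rest of its panel.

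The interferon-induced members differed between libraries of the same group in a common order that the rule did not use. Control replicate 1 was above replicate 2 for all 18, by a median of 0.70 on the log2 scale, 7 day replicate 2 was above replicate 1 for 18 of 18 (median 0.40), and 28 day replicate 2 was above replicate 1 for 16 of 18 (median 0.58). The medians over all 11063 genes above 0 in every library with a mean of at least 1 RPKM were 0.02, -0.01 and 0.06 for replicate 2 over replicate 1. All 3 orders together held for 16 of 18 interferon-induced members and for 4 of 26 others, against 13.8% of the 9339 genes. The 4 others were Chac1, Phf11, BC028528 and Gm8979. The order was not particular to the members. Each of the interferon genes left out by symbol, except Ifi27l2a, showed all 3 orders too. So did genes of the interferon list that are no members, such as Ddx58, Parp12 and Uba7, while Igtp and Trim21 did not. The 3 orders counted are those of the medians of the 18 members. A high share among them was therefore set in advance, and nothing is read from it. The members share their libraries, so their agreement is not that of independent observations.

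**Figure D3:**
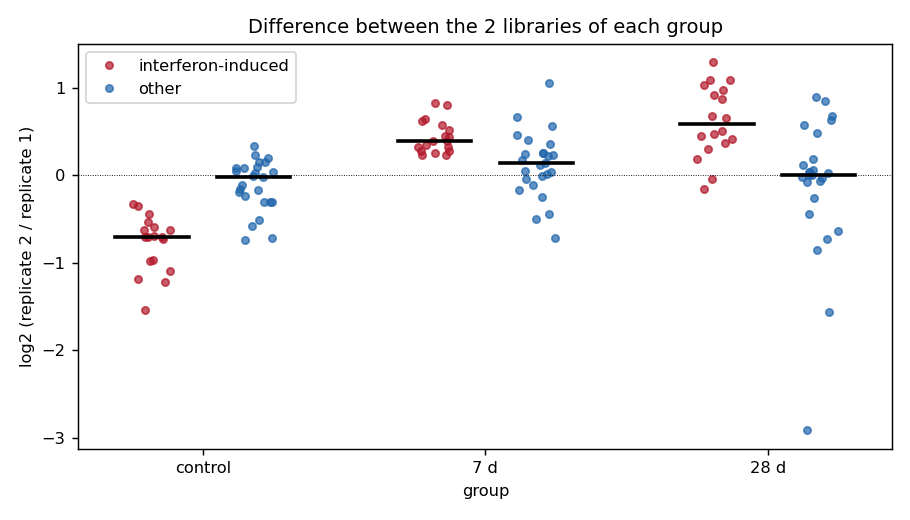
Log2 of replicate 2 over replicate 1 within the control, 7 day and 28 day groups for 18 interferon-induced (red) and 25 other members (blue); points are genes and black bars medians. The interferon-induced medians are -0.70, 0.40 and 0.58, and those of the other members -0.02, 0.14 and 0.00.

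The control libraries also differed in markers of other tissue. The summed level of 10 atrial markers was 342 RPKM in control replicate 1 and 3067 in replicate 2, and between 2059 and 3458 in the infused libraries. Nppa, which encodes atrial natriuretic peptide, held most of this sum. Without it the sum of the other 9 was 127 and 1462 RPKM in the controls, 127 and 169 at 7 days and 810 and 418 at 28 days, so the 7 day libraries were near control replicate 1. The summed level of 8 red blood cell markers was 499.9 and 129 RPKM in the controls, 393 and 306 at 7 days and 204 and 156 at 28 days, most of it from the globin gene Beta-s. The sums of 18 T, B and natural killer lymphocyte markers were low throughout, at 6.88 and 6.59 RPKM in the controls, 13.2 and 13.9 at 7 days and 7.83 and 9.86 at 28 days. Without Thy1, which other cell types also express, the sums were 2.69 and 2.30 RPKM in the controls, 3.59 and 3.51 at 7 days and 3.42 and 4.51 at 28 days. None of these 3 lists had a marker at 0 in every library. The part of these differences in the levels of the members was not tested.

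Of the interferon list, 57 genes were tested, and 13 were called lower at 28 days than in the controls and 1 higher by limma. Of the 13, 8 were members, chosen for being low. Without the members, 40 genes were left, of which 5 were called lower (Cd274, Gm4951, Parp12, Trim21 and Uba7), against 1.54% of all genes, and 1 higher (Ccl5). Their median log2 change was -0.76 beside 0.01 over all genes, and the change was below 0 for 36 of the 40, with Ccl5, B2m, Serping1 and Cd74 above 0. Leaving out 1 library gave between 0 and 8 lower calls among these 40, with 0 without control replicate 1, either 7 day library or 28 day replicate 1. Against 7 days 16 of the 40 were called lower, beside 4.26% of all genes, 0 without 7 day replicate 2 and at most 22 with 1 library left out, with a median of -0.85 beside -0.12 over all genes. At 7 days 9 of the 40 were called higher than in the controls and 0 lower, with a median of 0.31 beside 0.14 over all genes. Of the 18 interferon-induced members 0 were called either way, against 13.2% of all genes called higher and 2.27% lower. The rule bounds the members' 7 day levels, and Ccl5, Cxcl10, Fcgr4 and Pyhin1 of the 9 were below its control minimum. Nothing is therefore read from a difference between the sets. With 1 library left out, between 1 and 11 of the 40 were called higher and between 0 and 2 lower at 7 days.

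Genes upstream in the pathway were read as a list drawn up after the data had been seen, so they are given as values only. The ligand genes Ifna1, Ifna2, Ifna4, Ifna5, Ifnb1, Ifne and Ifnk were listed at 0 in all 6 libraries, and the highest value of Ifng was 0.0809 RPKM. Of the receptor genes, Ifnar1 had group means of 4.21, 4.67 and 3.71 RPKM in the control, 7 day and 28 day groups, and Ifnar2 had 18.1, 23.0 and 18.6.

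Of the transcription factors downstream, Stat2 and Irf9 met the values of the rule and were left out by symbol. Stat2 was at 18.2 and 10.4 RPKM in the controls, 10.3 and 12.95 at 7 days and 3.45 and 6.40 at 28 days. Irf9, its partner, was at 27.0 and 21.3 RPKM in the controls, 16.2 and 17.6 at 7 days and 6.64 and 10.4 at 28 days. Irf3, which acts upstream to start interferon production, lay between 9.365 and 10.85 RPKM in all 6 libraries.

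Another set of members is known from monocytes and macrophages, the phagocytes that enter and reside in the heart. Fcgr1, Ccl7 and Evi2a lay above both controls at 7 days and below them at 28 days. Fcgr1, the high-affinity receptor for immunoglobulin G, was at 2.41 and 1.95 RPKM in the controls, 4.72 and 5.21 at 7 days and 0.942 and 0.904 at 28 days. The libraries of a group lay close together and the 3 groups did not overlap.

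Ccl7, a chemokine that draws monocytes, was at 2.597 and 2.89 RPKM in the controls, 5.68 and 6.76 at 7 days and 1.68 and 0.931 at 28 days. Evi2a, a membrane protein gene that lies within an intron of Nf1, was at 2.75 and 3.48 RPKM in the controls, 6.51 and 6.05 at 7 days and 1.75 and 1.47 at 28 days; whether reads were counted by strand is not given in the sources used here. Plau, which encodes urokinase, a protease that activates plasminogen, was at 1.89 and 2.23 RPKM in the controls, 3.81 and 2.33 at 7 days and 1.12 and 1.12 at 28 days. Plau followed the same order, although 7 day replicate 2 exceeded control replicate 2 by little.

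Of 14 tested monocyte and macrophage markers, 9 were called higher at 7 days than in the controls, 9 lower at 28 than at 7 days, and 1, the member Fcgr1, lower at 28 days than in the controls. The shares of all genes were 13.2%, 4.26% and 1.54%. The summed level of the 14 markers that are not members was 351 and 347 RPKM in the controls, 502 and 553 at 7 days and 291 and 221 at 28 days, and none was at 0 in every library. The median log2 change of the tested markers at 28 days was -0.24 against the controls. The part of these markers' levels in those of Fcgr1, Ccl7, Evi2a and Plau was not tested.

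Energy metabolism contributed Ucp3 and Angptl4, which lay on opposite sides of the controls at 7 days. Ucp3, a carrier of the inner mitochondrial membrane found in muscle, was at 45.2 and 40.6 RPKM in the controls, 28.9 and 20.4 at 7 days and 12.8 and 7.72 at 28 days. The 3 groups did not overlap and descended in the order control, 7 days, 28 days. Limma did not call Ucp3 at 7 days against the controls (adjusted p 0.068). Angptl4, a secreted inhibitor of lipoprotein lipase, was at 14.0 and 11.9 RPKM in the controls, 22.5 and 25.4 at 7 days and 7.14 and 2.42 at 28 days. Its 28 day libraries differed from each other nearly as much as the higher of them differed from the lower control. Adipocyte markers differed between these libraries too: without Fabp4, which endothelium also expresses, the other 9 summed to 21.63 and 24.99 RPKM in the controls, 47.5 and 41.8 at 7 days and 90.9 and 31.4 at 28 days. Outside 28 day replicate 1, Cidea held most of this sum. Adipoq was at 0.913 and 1.68 RPKM in the controls, 1.33 and 0.988 at 7 days and 5.78 and 0.474 at 28 days. Cfd was at 2.37 and 5.12 RPKM in the controls, 10.6 and 9.40 at 7 days and 40.0 and 2.34 at 28 days. The part of these markers in the level of Angptl4 was not tested.

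Of 33 tested genes of fatty acid uptake, storage and oxidation, 1, the member Ucp3, was called lower at 28 days than in the controls by limma. This is near the 1.54% of all genes, and 0 were called higher. The median log2 change was -0.20, and -0.13 without the members, beside 0.01 over all genes. Fabp3, the heart's fatty acid binding protein, was at 961 and 883 RPKM in the controls and 976 and 958 at 28 days. Cpt1b, which admits fatty acids to mitochondria, was at 166 and 171 against 207 and 245. These genes do not stand for the list. Cpt1b had its largest log2 increase, while Dgat2, Pdk4, Cpt1a, Decr1 and Hadhb had changes between -0.42 and -0.33. Pdk4 was at 211 and 244 RPKM in the controls and 299 and 98.0 at 28 days.

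Aox1, an oxidase of aldehydes and drugs, was at 8.93 and 7.96 RPKM in the controls, 5.14 and 6.05 at 7 days and 3.39 and 3.32 at 28 days. Like Ucp3 it descended over the 3 groups with no overlap. Hsd3b7, an enzyme of bile acid synthesis, had means of 10.7 ± 0.46, 12.2 ± 0.245 and 7.05 ± 0.0906 RPKM (SD, n = 2) in the control, 7 day and 28 day groups. Slc26a6, an anion exchanger, was at 4.85 and 3.94 RPKM in the controls, 4.09 and 4.08 at 7 days and 2.20 and 2.26 at 28 days. Hsd3b7 and Slc26a6 varied little between libraries of a group.

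Chac1, an enzyme that breaks down glutathione and a target of the stress factor ATF4, had one of the largest gaps. It was at 3.63 and 3.37 RPKM in the controls, 2.75 and 4.36 at 7 days and 0.814 and 1.26 at 28 days, and its lowest value before 28 days was 2.18 times the higher 28 day value. Its promoter holds the letters TGATGNAA of the element that ATF4 and C/EBP factors bind, found on either strand in the windows of 3 of 30 members, against 4.51% of genes. The others were D14Ertd668e and Trim34a. The match in Chac1 reads on the opposite strand:
Chac1, chr2:119351029-119351076, plus strand: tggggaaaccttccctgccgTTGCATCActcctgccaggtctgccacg

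Other genes of the ATF4 pathway, read after the data had been seen, were not lower at 28 days than in every other library. Atf4 itself was at 32.4 and 35.2 RPKM in the controls, 44.1 and 39.0 at 7 days and 39.9 and 39.5 at 28 days. Atf3, a stress-induced factor, had group means of 1.98, 7.47 and 10.8 RPKM, in the order control, 7 days, 28 days. Trib3, a pseudokinase of this pathway, overlapped between all 3 groups, with means of 1.145, 1.246 and 1.213 RPKM.

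**Figure D4:**
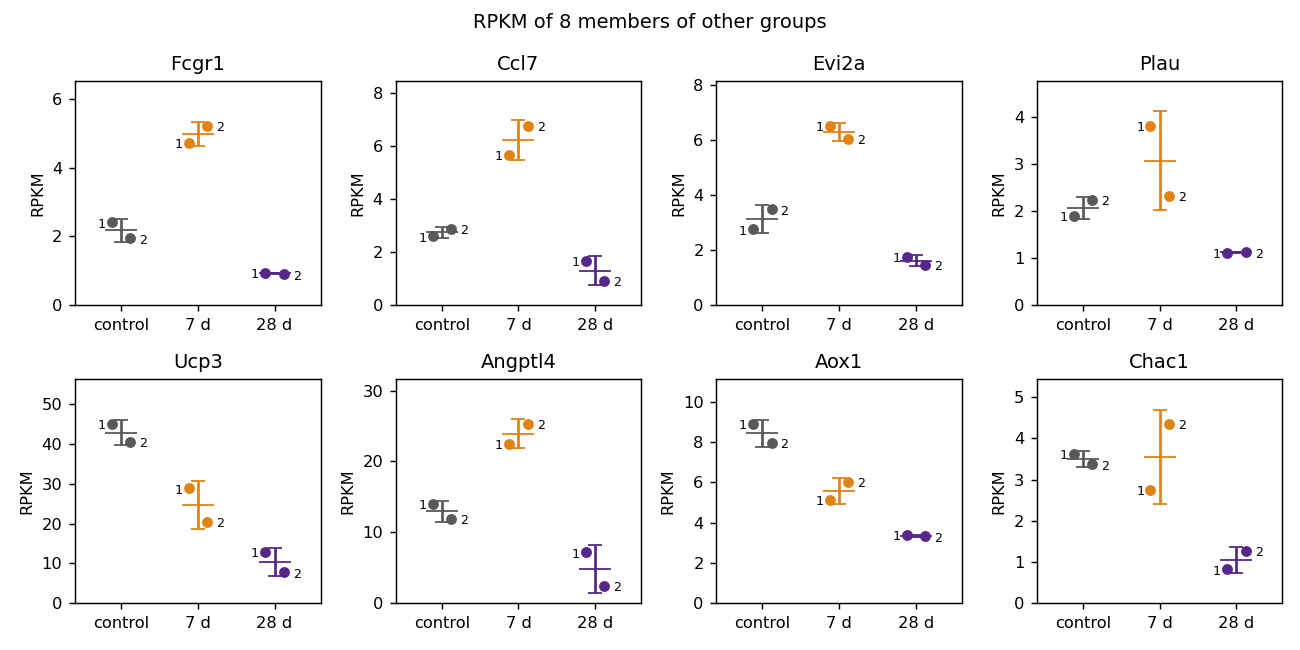
RPKM of 8 further members in the control, 7 day and 28 day groups; points are libraries marked 1 and 2, horizontal bars the group mean and error bars the SD (n = 2), each panel starting at 0. Fcgr1, Ccl7, Evi2a, Plau and Angptl4 have their highest mean at 7 days, Ucp3 and Aox1 descend over the groups, and Chac1 overlaps between controls and 7 days.

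Ube2t, Helb and Tubd1 are known from DNA repair, DNA unwinding and microtubules. Ube2t, a ubiquitin-conjugating enzyme of the Fanconi anaemia pathway, was at 2.95 and 2.90 RPKM in the controls, 2.605 and 3.03 at 7 days and 1.50 and 1.48 at 28 days. Helb, a DNA helicase, was at 3.11 and 3.21 RPKM in the controls, 2.58 and 2.61 at 7 days and 1.73 and 1.79 at 28 days. Tubd1, which encodes delta-tubulin, was at 3.55 and 3.80 RPKM in the controls, 4.04 and 3.60 at 7 days and 2.46 and 2.53 at 28 days. All 3 were at a low level with close replicates, and Helb was below both controls at 7 days too.

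Mitd1, which acts in the last step of cell division, had a control mean 2.09 times the 28 day mean. Rasl10a, a Ras-like GTPase, had 2.78, Mageh1, of the MAGE family, 1.56, and Apol10b, of the apolipoprotein L family, 2.22. The long noncoding RNA 1500012F01Rik, now Zfas1, a host of small nucleolar RNAs, was at 15.8 and 16.1 RPKM in the controls, 14.8 and 17.7 at 7 days and 9.05 and 10.3 at 28 days. Its means differed by 1.65 times between controls and 28 days with little spread in either group.

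The remaining members are predicted genes or clones, and their roles are not described here. Gm8979, a transcribed pseudogene, BC028528 and the long noncoding RNA 2310001H17Rik had control means between 2.18 and 3.05 times the 28 day means. The clone 2210407C18Rik was at 3.78 and 4.33 RPKM in the controls, 16.4 and 34.2 at 7 days and 2.67 and 0.354 at 28 days, the largest ratio between 28 day libraries among the members above 0 in every library. Gm14440 was at 2.52 and 2.79 RPKM in the controls, 0.000149 and 0.000164 at 7 days and 0 in both 28 day libraries. It met the rule only because any value above 0 lies above 0, it was listed near 0 at 7 days as well, and it did not reach the mean level for testing. Read counts were not used here, so a value at or near 0 may not show that a gene was silent.

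The members nearest the threshold lay close to genes that missed it. Just inside it, the lowest control or 7 day value was 1.402 times the higher 28 day value for Tubd1, 1.415 times for 2210407C18Rik and 1.416 times for Parp14. Just outside lay, among others, 2310004I24Rik at 1.398 times and Polr2k at 1.394. Levels were low in general, with 22 of 44 members under 5 RPKM in the control mean and 12 at 10 RPKM or more.

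At 7 days the members lay on both sides of the controls. Both 7 day libraries were above both controls for 10 of 44 members, against 47.7% of the 9339 genes, and below both for 6 of 44, against 17.0%. The 10 included Fcgr1, Zbp1, Plau, Angptl4, Evi2a, Ccl7, Hsd3b7, Mageh1 and 2210407C18Rik, and the 6 were Gm14440, 2310001H17Rik, Ucp3, Aox1, Ddx60 and Helb. In these 6 the 7 day values also lay below the controls, but their share was under that of all genes. Limma called only Aox1 lower at 7 days, and Gm14440 was not tested. Nothing is therefore read from the 6 as a group. Values were not scaled between libraries. The median level of a library over genes, relative to all libraries, gave scaling factors of 1.08 and 1.07 at 7 days. They were 0.953 and 0.971 in the controls and 0.953 and 0.991 at 28 days. Shares of all genes higher at 7 days, or lower at 28 than at 7 days, include this general difference. Its source was not tested.

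Limma called 4 of the 43 tested members higher at 7 days than in the controls, against 13.2% of all genes, and 1 lower, against 2.27%. The higher ones were Fcgr1, Evi2a, Ccl7 and 2210407C18Rik, with log2 changes of 1.03 (SE 0.15), 0.91 (SE 0.15), 1.05 (SE 0.21) and 2.41 (SE 0.58), and the lower one was Aox1, at -0.56 (SE 0.13). The rule used the same 7 day and control values, so these counts are a description. Higher calls numbered 2 without either control, 1 without 7 day replicate 1 and 0 without 7 day replicate 2, and Aox1 was not called without any 1 of these 4 libraries. The median log2 change of the members at 7 days was 0.05, and that of all genes was 0.14.

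**Figure D5:**
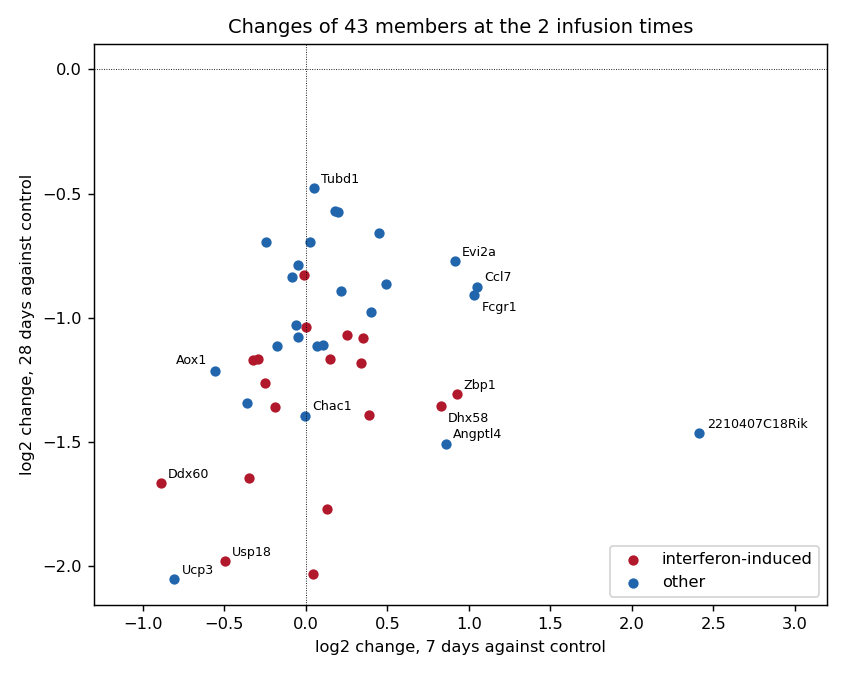
Log2 change at 28 days against that at 7 days, each relative to the controls, for 43 tested members; red points are interferon-induced and blue points other members. Both axes share the control libraries; the vertical range is set by the rule, while the horizontal range runs from -0.89 for Ddx60 to 2.41 for 2210407C18Rik.

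Of 24 lists, 12 of pathways and 12 of cell type markers, 3 held at least 1 member, namely the interferon response, the monocyte and macrophage markers, and fatty acid handling. With 44 members among 9339 genes most lists of this length would hold none, so nothing is read from the 21 without one. They included potassium channels, calcium cycling, branched-chain amino acid breakdown, the circadian clock, and markers of endothelium, smooth muscle, fibroblasts and ventricular muscle. A list without a member could still differ between groups. Of 18 clock genes, limma called 8 lower, against 1.54% of all genes, and 3 higher at 28 days than in the controls. Dbp was at 54.7 and 49.0 RPKM in the controls, 2.92 and 1.79 at 7 days and 13.9 and 17.0 at 28 days. Arntl was at 0.192 and 0.861, 9.54 and 9.49, and 4.36 and 4.58. The part of this difference in the levels of the members was not tested. The summed level of 14 ventricular markers was 58240 and 57300 RPKM in the controls. It was 65030 and 53310 at 7 days and 64580 and 67950 at 28 days. That of 18 endothelial markers was 2286 and 2067 RPKM in the controls, 2285 and 2471 at 7 days and 2079 and 2092 at 28 days. Without Fabp4 the other 17 summed to 1143 and 1073, 1073 and 1147, and 1088 and 1131 RPKM. None of either list was at 0 in every library. Relative to control replicate 1, sequencing depth lay between 0.89 and 1.17 in the other libraries, lowest in 28 day replicate 2.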

How the data were processed

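The deposited table holds 1 RPKM value for each gene in each library, a normalized unit computed by the authors, and column names give the library. Tools named per the submitters' processing notes are DESeq2, HTSeq, Bowtie 0.12.9 and TopHat2 2.0.12, with builds mm8 and mm9; the notes used here state no role for any, no annotation and no read totals. Values were used unscaled, and relative depth was read from the commonest ratio of low values. For tests, log2(RPKM + 0.5) of 11096 genes with a mean of at least 1 was fitted in limma 3.58.1 (R 4.3.3) with all 6 libraries, group means and a mean-variance trend, and p-values were adjusted by Benjamini-Hochberg over all genes. Fold changes on this scale understate those of low genes. The fit was tested on simulated data. The members, the lists and the tests were chosen with earlier results of these data known. Genes named are the 25 members with the widest gap, the 10 most abundant, those on a list, those nearest the threshold, and members grouped by function. All 44 members matched a RefSeq symbol, 4 of them through a synonym. Coordinates are those of RefSeq promoters on GRCm38.p6, not of the table. Some genes that the naming rule covers are not reported here.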

Additional observations from a re-analysis of the deposited data

How the results depend on the processing

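With group means in place of single libraries the rule took 169 genes, with a factor of 1.3 it took 79 and with a factor of 2 it took 7. A control minimum of 1 RPKM gave 68 genes and one of 5 RPKM gave 22. Without 1 library the number lay between 56 and 195. Leaving out the interferon list too, a setting added after the data were seen, gave 27. Median ratio scaling kept 35 of the 44 and quantile normalization 33. Calls lower at 28 days against control, 24 as reported, numbered 2 with no filter on low values, 12 with a mean of at least 5 RPKM, 6 with only the groups compared, and 0 to 20 without 1 library. Calls lower at 28 against 7 days, 31 as reported, numbered 7 with no filter, 14 with a mean of at least 5 RPKM, 15 after median ratio scaling, 12 after quantile normalization, and 1 to 31 without 1 library. At 7 days, 1 lower call became 2 after quantile normalization or with only the groups compared and 0 to 2 without 1 library, and 4 higher calls became 2 with no filter, 1 with a mean of at least 5 RPKM and 0 to 5 without 1 library. A mean of at least 5 RPKM or a left-out library leaves fewer members or samples to test; for the other settings the cause was not tested. With the replicate number as a replicate block, the counts were 13 at 28 days against control, 20 at 28 against 7 days, and 2 lower and 4 higher at 7 days. Deviations of libraries with the same number correlated at 0.149 between control and 7 days, -0.0193 between control and 28 days and -0.0139 between 7 and 28 days, so the numbers were not taken as pairs. Many members were at a few RPKM, where few reads limit precision.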
